A study of Mus musculus with 60 samples.

Results

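The genes described here are the collagens, integrins and laminins of cultured mouse hepatocytes, that is, every gene whose symbol is Col, a digit, a and a digit, or starts with Itga or Itgb, or is Lama, Lamb or Lamc with a digit, and whose mean over the 60 libraries was above 1 ppm (the unit of the deposited table, which scales each library to the same total). Of 23126 genes in the table, 86 carry such a symbol and 29 passed the mean. They are 9 of 44 collagen chains, 14 of 28 integrin subunits, 4 of 11 laminin chains and 2 of 3 genes that the symbol alone brings in, the integrin-binding Itgb1bp1 and the centromere component Itgb3bp. The last genes inside the limit were Col3a1 (1.30 ppm), Itgb3bp (1.17 ppm) and Itga2b (1.00 ppm), and the next below it were Col15a1 (0.991 ppm), Col20a1 (0.985 ppm) and Col5a2 (0.980 ppm). No laminin beta chain was among the members.

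The study asked whether a father's exposure to nicotine changes gene expression in the hepatocytes of his sons, and it used 8-week-old male F1 mice of strain C57BL/6J from nicotine-exposed (NIC) and control (TA) fathers, with 10 animals of each. Livers were perfused with collagenase, hepatocytes and supporting cells were released together, plated on gelatin in medium with serum, insulin, transferrin and selenium, and left for 3 h, after which cells that had not attached were removed. From 5 NIC and 5 TA animals, RNA was taken at 0, 1, 3 and 21 h in medium with dexamethasone and DMSO, and from a further 21 h culture that the study lists as "none" (21 h none below, a word that neither the labels nor the methods explain). The labels give both 21 h cultures of an animal alike, with dexamethasone. The remaining animals gave 1 library each at 2 h. These came from 2 NIC and 2 TA animals with dexamethasone and from 3 NIC and 3 TA animals without it. The library titles carry 4 dates, called A to D here: A and B hold the time course (3 and 2 animals of each father), C the 2 h cultures with dexamethasone and D those without. The controls thus share the enzyme digestion, the gelatin coat, the serum and the DMSO with the NIC cells. All libraries therefore hold cells that were freed by collagenase and attached to a denatured collagen coat, and no uncultured liver was analysed here.

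Collagens are triple helices of alpha chains that form fibrils or, as collagen IV, a sheet in basement membranes. Laminins are cross-shaped trimers of an alpha, a beta and a gamma chain that form the other sheet of a basement membrane. Integrins are pairs of an alpha and a beta subunit in the cell membrane that bind these ligands outside the cell and, through talin and other adaptors, the actin cytoskeleton inside it. In the liver, hepatocytes carry few integrins and face a loose matrix in the space of Disse, while stellate cells, endothelial cells, bile duct cells and leukocytes bring integrins and matrix genes of their own.

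The read counts behind the values could be recovered for 99.4% of the genes with any signal and for all 29 members, because values are whole multiples of what 1 read is worth for that gene and library (98.9% of the values, tolerance 0.05 reads). Libraries held 50832 to 1659838 reads on those genes, of which 110 to 4166 were reads of the members. The 21 h libraries of the NIC animals 14, 15 and 11 were shallow, with 52378, 50832 and 141338 reads, against 309925 to 1522219 in the other 21 h libraries, so that 1 read of a member stands for many ppm there. Hepatocyte markers (Alb, Apoa1, Ttr and 5 others) summed to 80244 to 174357 ppm at 21 h and 119381 to 166384 ppm at 0 h (6 of the 8 were lower at 21 h in limma), far above the markers of other liver cells, which were nonetheless present. A mean above 1 ppm was reached by 13 of 14 Kupffer cell, 16 of 17 endothelial, 8 of 20 stellate cell and fibroblast, 3 of 10 biliary, 3 of 13 lymphocyte and 0 of 7 mesothelial markers, and not by Des, Pdgfrb and Acta2 of stellate cells nor Krt7 and Krt19 of bile ducts. Kupffer cell markers summed to 207 to 1916 ppm at 21 h and 98.7 to 320.0 ppm at 0 h, stellate cell and fibroblast markers to 27.5 to 2602 ppm and 36.6 to 80.6 ppm, and endothelial markers to 69.7 to 536 ppm and 104 to 216 ppm. The highest sums were those of NIC 14 and NIC 15 at 21 h (stellate 1492 and 2602 ppm, Kupffer 1916 and 1731 ppm), while no other 21 h library passed 122 ppm for stellate and 567.96 ppm for Kupffer markers. At 21 h none the stellate sums were also highest in NIC 14 (269 ppm) and NIC 15 (248 ppm), followed by NIC 11 (153 ppm). The Kupffer sums of NIC 14 and NIC 15 were 287 and 183 ppm there, below the 347 ppm of NIC 13. NIC 14 at 21 h none was rather shallow too, with 169610 reads. In such mixed samples, fewer cells of a type and less RNA per cell cannot be told apart.

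At 0 h the families differed widely in level. The values of dates A, B and D are scaled by transcript length as well as by library, so that genes can be set beside each other, and on that scale Col18a1, the multiplexin whose C-terminal fragment is endostatin, led with a mean of 183 ppm, followed by Itgb1, the beta subunit shared by most matrix-binding integrins, with 112 ppm. Itgav, the alpha subunit of the RGD-binding integrins, followed at 17.4 ppm, its partner Itgb5 at 15.4 ppm and the fibrillar Col27a1 at 11.4 ppm. The other 24 members had means under 10 ppm, down to 0.189 ppm for Itgam, the alpha subunit of the myeloid complement receptor. Over the 10 animals the integrin subunits together had 132, 171 and 195 ppm (lowest, median, highest), the collagens 148, 237 and 269 ppm and the laminins 4.95, 6.98 and 15.2 ppm. The well-known chains of collagen I were not among the members, and the laminin beta chains Lamb1 and Lamb2 had medians of 0.425 and 0.189 ppm at 0 h, below the limit.

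**Figure D1:**
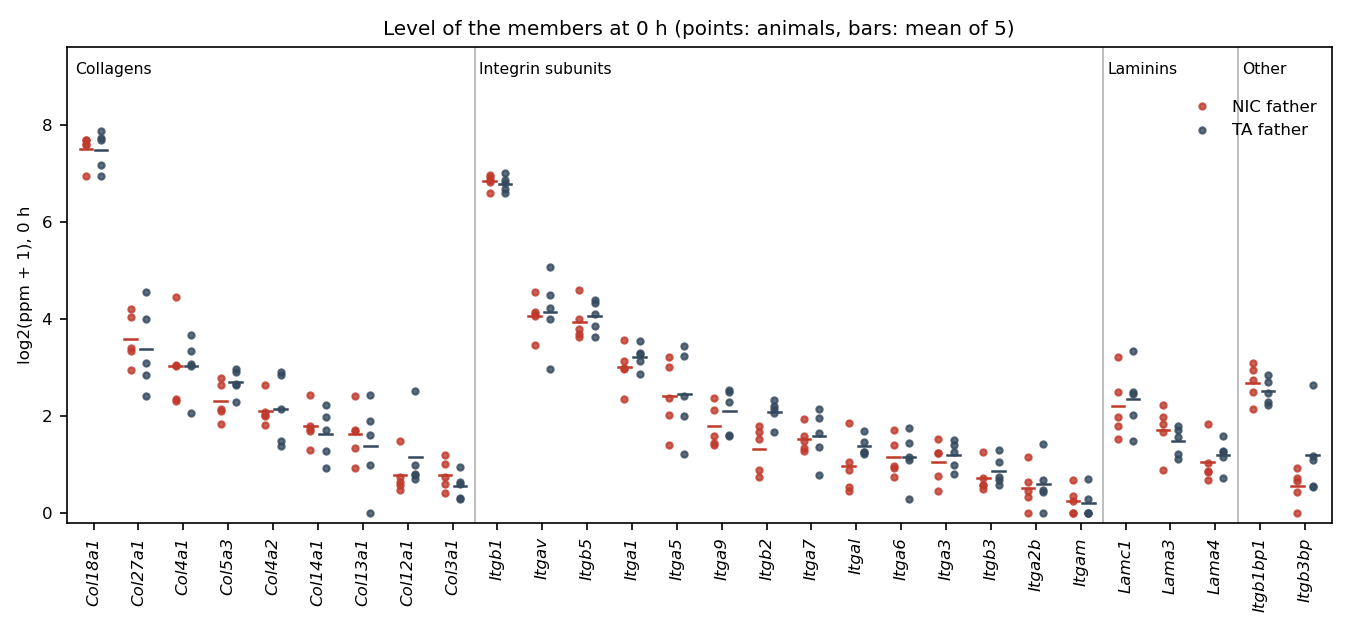
Level of 28 members at 0 h as log2(ppm + 1), by family and in order of the mean, with 1 point for each of 5 NIC and 5 TA animals and a bar at the mean of each father. Col18a1 and Itgb1 stand far above all other members (means 183 and 112 ppm), and NIC and TA points overlap for each of them.

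After 21 h of culture Itgb1 stood above Col18a1. Of the 29 members, 13 were higher and 6 lower at 21 h than at 0 h, at a Benjamini-Hochberg adjusted p under 0.05 in limma on log2(ppm + 1) over 11135 genes. Of all genes tested, 29% were higher and 21.7% lower, 50.7% in all, and the members' 19 in 29 are to be read against these shares. The median change was 0.45 on the log2 scale over the members and 0.12 over all genes. edgeR's quasi-likelihood test on the recovered reads called 13 members higher and 7 lower (54.2% of genes in either direction). Without the 3 shallow libraries limma called 13 and 6 (46.65% of genes), and edgeR 13 and 8 (52.34%). Itgb3, Itgam, Col3a1 and Itga2b had means under 1 ppm at 0 h and passed the limit on the mean through other cultures, so that higher values there are in part set by how the members were chosen. Called in the same direction in all 4 of these fits were 11 members that rose (among them Col4a1, Col4a2, Col12a1, Lamc1, Lama4, Itgb3, Itgam, Itga3, Itga6, Itgav) and 6 that fell (Col18a1, Col27a1, Col5a3, Col13a1, Itga1, Lama3). When the medians of all libraries were set equal, 10 members were higher and 8 lower (54.1% of genes called). The median change over all genes was then −0.19, and 37.1% of all gene calls were upwards instead of 57.2%. With quantile normalisation that median was −0.0027, and 13 members were higher and 7 lower (54.7% of genes called, 50.0% of the calls upwards).

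**Figure D2:**
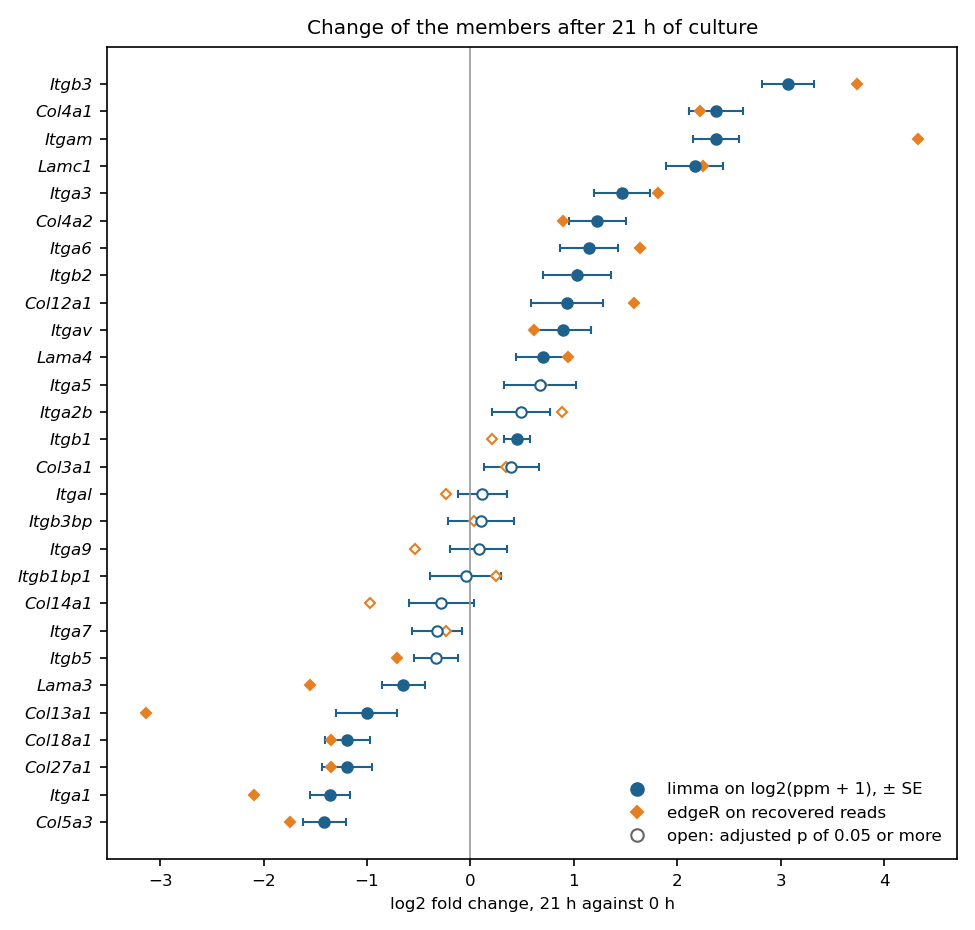
Log2 fold change of 28 members at 21 h against 0 h (10 animals), in order of size. Circles give limma on log2(ppm + 1) with the standard error, diamonds edgeR on the recovered reads, and open symbols have an adjusted p of 0.05 or more. Itgb3, Itgam, Col4a1 and Lamc1 stand at the top and Col5a3, Itga1, Col27a1 and Col18a1 at the bottom, and edgeR gives larger changes for members with few reads such as Itgam and Col13a1.

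Among the ligands, Col4a1 and Lamc1 rose most in limma, while Col18a1 and Lama3, given below, fell. Col4a1, which together with Col4a2 forms the common collagen IV trimer, had 23.3, 35.9 and 112 ppm at 21 h (lowest, median and highest of 10 animals) against 3.14, 7.25 and 20.8 ppm at 0 h. Every 21 h library lay above every 0 h library, and the log2 change was 2.38 (SE 0.26, limma adjusted p 1.15e-10). Its partner Col4a2 had 2.41, 8.80 and 34.0 ppm at 21 h against 1.62, 3.14 and 6.46 ppm at 0 h, a range that overlapped, with a log2 change of 1.23 (SE 0.27, limma adjusted p 1.88e-04) and 8 of 10 animals higher. Without the shallow libraries the change of Col4a2 was 0.74 (limma adjusted p 0.0223). Both genes lie on chromosome 8 of GRCm38 in opposite directions, Col4a1 on the minus strand (11198423 to 11312826) and Col4a2 on the plus strand (11312805 to 11449287), and their annotated starts are 21 bases apart.

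Among the laminins, Lamc1, the gamma chain of most laminins (chromosome 1, 153218922 to 153332786, minus strand), had 7.64, 22.4 and 59.7 ppm at 21 h against 1.80, 3.76 and 9.04 ppm at 0 h. The ranges overlapped between animals, but within each of the 10 animals the 21 h value was the higher (log2 change 2.17, SE 0.27, limma adjusted p 4.57e-09; exact sign-flip permutation test over the 10 animals p 0.00195, the smallest that 10 animals allow).

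The 2 alpha chains went opposite ways. Lama4, a chain of vessel and mesenchymal laminins, had 0, 2.43 and 13.5 ppm at 21 h against 0.592, 1.13 and 2.56 ppm at 0 h, with a log2 change of 0.70 (SE 0.26, limma adjusted p 0.0199). The 0 is that of NIC 14, where 3 reads would stand for 9.66 ppm. The call of Lama4 was lost without NIC 15 (0.44, adjusted p 0.109) and, narrowly, without NIC 13 (0.67, adjusted p 0.0507). It was also lost in limma with a pseudocount of 0.1 ppm (adjusted p 0.155) and with library medians set equal (0.40, adjusted p 0.151). The same held with 0 h and 21 h libraries only (adjusted p 0.129) and with both 21 h cultures together (0.46, adjusted p 0.0856). Lama3, an alpha chain of epithelial laminins, had 0, 0.760 and 3.77 ppm at 21 h against 0.838, 2.23 and 3.68 ppm at 0 h (log2 change −0.65, SE 0.21, limma adjusted p 0.00766), and was lower in 6 of 10 animals. The beta chain Lamb1, no member, had a median of 0.740 ppm at 21 h and 0.425 ppm at 0 h.

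Among the integrins, the largest change in limma was that of Itgb3, while in edgeR that of Itgam, given below, was larger. Itgb3 is the beta subunit that pairs with alpha v in the vitronectin receptor and with alpha IIb in platelets (chromosome 11, 104608000 to 104670476, plus strand). It had 5.92, 12.1 and 37.6 ppm at 21 h against 0.412, 0.616 and 1.47 ppm at 0 h, with no overlap. As its mean at 0 h was under 1 ppm, a difference from 0 h was in part fixed by the limit on the mean. The log2 change of Itgb3 was 3.07 in limma (SE 0.25, adjusted p 1.50e-14) and 3.74 in edgeR (adjusted p 2.09e-12), and it took Itgb3 to rank 6 among the members at 21 h, against rank 25 at 0 h. Behind it stood 85 reads in NIC and 309 in TA at 21 h, and 20 in NIC and 19 in TA at 0 h. Its alpha partner Itgav had 19.3, 24.8 and 79.4 ppm at 21 h against 6.80, 16.4 and 32.6 ppm at 0 h, higher in 8 of 10 animals (log2 change 0.89, SE 0.27, limma adjusted p 0.00532). Its other partner Itga2b, the platelet alpha subunit, did not pass (0.49, SE 0.28, adjusted p 0.141). Itgb5, a further beta partner of alpha v, gave −0.33 in limma (adjusted p 0.194) and −0.71 in edgeR (adjusted p 6.76e-04).

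Itgb1 had 83.3, 162 and 236 ppm at 21 h against 95.4, 114 and 127 ppm at 0 h. It was higher in 8 of 10 animals and became the leading member, at a mean of 158 ppm, above the 87.8 ppm of Col18a1. The change of 0.45 passed in limma (SE 0.13, adjusted p 0.00294) but not in edgeR (0.21, adjusted p 0.156) nor with library medians set equal (0.14, adjusted p 0.228). Its direction was positive in all of these.

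The laminin-binding alpha subunits, which pair with beta 1 or, for alpha 6, beta 4 to hold epithelial cells on a basement membrane, were 3 members. Itga3 had 1.26, 5.26 and 11.4 ppm at 21 h against 0.359, 1.36 and 1.87 ppm at 0 h (log2 change 1.47, SE 0.27, limma adjusted p 1.42e-05), and Itga6 had 0, 4.52 and 10.6 ppm against 0.215, 1.18 and 2.39 ppm (1.15, SE 0.28, adjusted p 5.32e-04). Both were higher in 9 of 10 animals, and the 0 of Itga6 is that of NIC 14, where 3 reads would stand for 9.69 ppm. The third, Itga7, known from muscle, gave −0.32 (SE 0.24, adjusted p 0.260). The collagen-binding subunit Itga1, the alpha partner of beta 1 for collagen IV, went the other way: it had 1.14, 2.38 and 6.499 ppm at 21 h against 4.12, 7.75 and 10.8 ppm at 0 h and was lower in 9 of 10 animals (log2 change −1.36, SE 0.19, limma adjusted p 6.46e-08). It was lower in all 6 animals of date A, by a mean of −1.81, and in 3 of 4 of date B, by −0.69. The fibronectin-binding Itga5 gave 0.67 (SE 0.34) and missed the threshold in limma (adjusted p 0.0977), but passed in edgeR (0.70, adjusted p 0.0235) and in edgeR without the shallow libraries (0.68, adjusted p 0.0360).

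Of the integrin subunits of leukocytes, Itgam and Itgb2 passed. Itgam had 2.13, 4.52 and 20.8 ppm at 21 h against 0, 0.0956 and 0.615 ppm at 0 h, with no overlap between the times. It rests on 36 reads in NIC and 59 in TA at 21 h, and on 4 in NIC and 2 in TA at 0 h, where 5 of the 10 libraries had none. Its means were 6.82 ppm at 21 h, 3.61 ppm at 21 h none and 0.189 ppm at 0 h, so it was a member through the 21 h cultures and a difference from 0 h was in part fixed by the limit on the mean. The fitted change was 2.37 in limma (adjusted p 9.30e-13), where it depends on the pseudocount, and 4.33 in edgeR (adjusted p 8.04e-10), where it depends on the prior count. Its beta partner Itgb2 had 1.21, 5.83 and 47.6 ppm at 21 h against 0.661, 2.32 and 4.02 ppm at 0 h and passed in limma (1.04, SE 0.33, adjusted p 0.00747), but was higher in only 6 of 10 animals, and the call was lost without the shallow libraries (0.52, adjusted p 0.179) or without NIC 15 alone (0.67, adjusted p 0.0573). Itgal, the lymphocyte alpha subunit of the same family, gave 0.11 and Itga9, which binds tenascin and other ligands, 0.08, and neither passed. Beside them, 7 of 13 Kupffer cell and macrophage markers rose and 3 fell (Cd68 4.12 and Vsig4 −1.70, limma adjusted p 8.72e-17 and 0.00114), the Kupffer cell gene Clec4f gave −0.10 (adjusted p 0.847), and none of 3 leukocyte markers tested passed. At 21 h none 3 of the 13 Kupffer cell and macrophage markers were higher than at 0 h and 5 lower. Their part in the changes of Itgam and Itgb2 was not tested.

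Of the 7 collagens other than collagen IV, 4 fell. Col18a1, a basement membrane collagen of hepatocytes and vessels (chromosome 10, 77052178 to 77166548, minus strand), had 25.4, 85.1 and 175 ppm at 21 h against 122, 198 and 234 ppm at 0 h. It was lower in all 10 animals, with ranges that overlapped (log2 change −1.19, SE 0.22, limma adjusted p 1.05e-05), by −1.17 in date A and −1.22 in date B. The fibrillar Col5a3 had 0, 1.45 and 2.17 ppm at 21 h against 2.56, 5.24 and 6.85 ppm at 0 h (−1.41, SE 0.20, limma adjusted p 1.11e-07). The values of 0 are those of NIC 14 and NIC 15, which had 0 reads where 3 would stand for 9.64 and 13.5 ppm, above their 3.44 and 5.26 ppm at 0 h, so a lower level was not measured in these 2. The other animals had 0.856 to 2.17 ppm at 21 h, each below every 0 h value. Col27a1, a fibrillar chain known from cartilage, had 0, 3.89 and 12.8 ppm against 4.28, 9.28 and 22.6 ppm, and was lower in all 10 animals, also in NIC 14, where the limit at 0 reads was 7.66 ppm and the 0 h value 9.06 ppm (−1.20, SE 0.24, limma adjusted p 5.99e-05). The transmembrane Col13a1 had a median of 0 ppm at 21 h and 2.15 ppm at 0 h (−1.004 in limma, adjusted p 0.00380). All 5 TA libraries at 21 h had 0 reads of Col13a1, which at 3 reads allows up to 0.834 to 3.14 ppm, and the 5 NIC libraries had 3 reads together.

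The fibril-associated chains gave mixed values. Col12a1 had 0 (NIC 14, where 3 reads would stand for 4.98 ppm), 2.29 and 16.1 ppm at 21 h against 0.382, 0.693 and 4.66 ppm at 0 h. It passed in limma (0.93, SE 0.35, adjusted p 0.0228) and more clearly in edgeR (1.58, adjusted p 1.03e-04). The limma call was lost without TA 4 (0.63, adjusted p 0.133) or NIC 13 (0.74, adjusted p 0.0720). It was also lost with a pseudocount of 0.1 ppm (adjusted p 0.0726), no filter on low values (0.0532), equal library medians (0.0790) or 0 h and 21 h libraries only (0.103). Col14a1 gave −0.28 (SE 0.32, adjusted p 0.473), and Col3a1, the fibrillar chain of connective tissue, 0.40 (SE 0.26, adjusted p 0.208). Itgb1bp1 and Itgb3bp, which are no integrins, gave −0.04 and 0.10. Stellate cell and fibroblast markers rose beside the rising collagens in 3 of 8 tested (Dcn, Lum and Ecm1), with their highest sums in NIC 14 and NIC 15, and endothelial markers rose in 3 and fell in 6 of 16. Their part in the changes of the members was not tested.

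**Figure D3:**
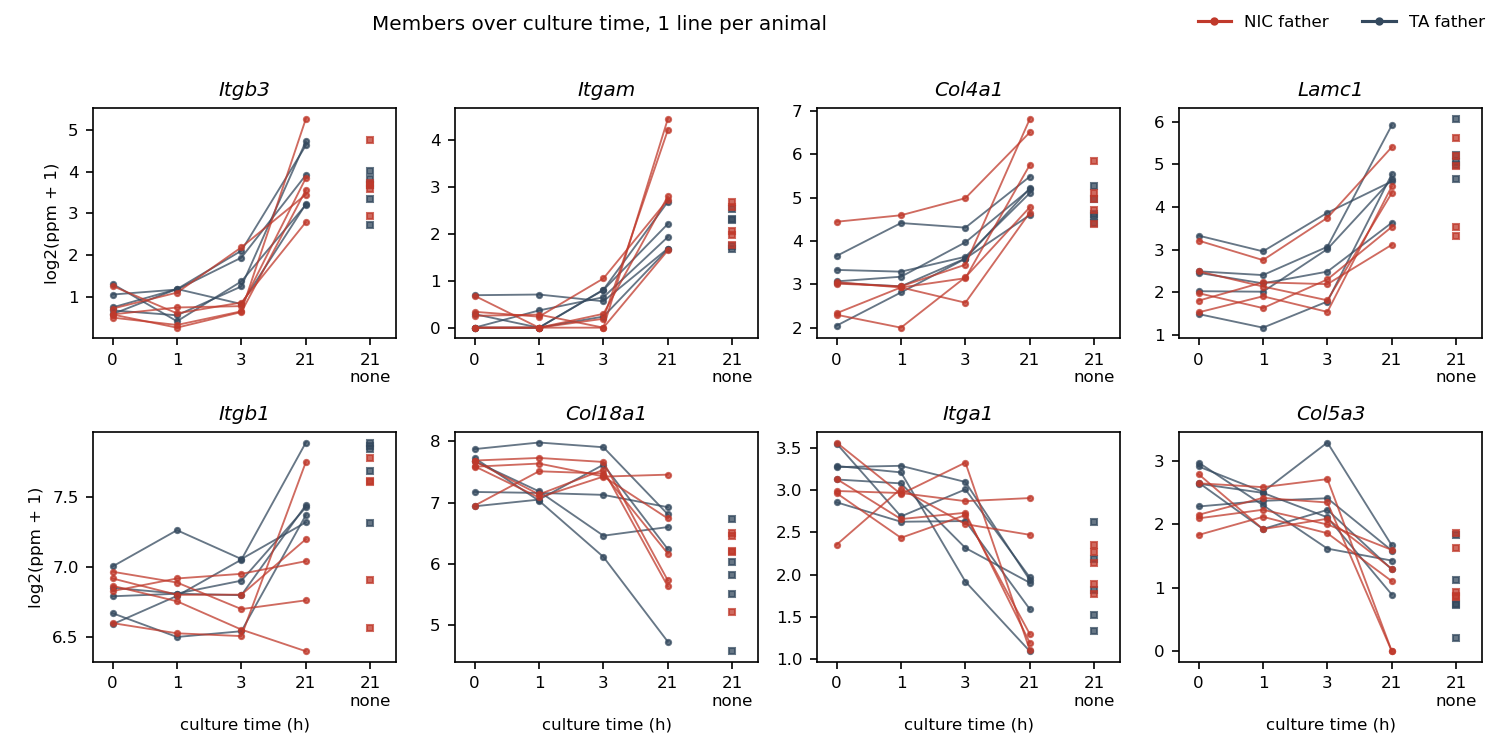
Log2(ppm + 1) of 8 members at 0, 1, 3 and 21 h, with 1 line for each of 5 NIC and 5 TA animals, and at 21 h none as squares. Lines of Itgb3, Itgam, Col4a1 and Lamc1 stand higher at 21 h than at 0 h in all 10 animals, and those of Col18a1 lower in all 10. Lines of Col5a3 end at 0 in NIC 14 and NIC 15, which had 0 reads.

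Counted over animals, the changes at 21 h reached an exact 2-sided sign-flip permutation p under 0.05 for 12 members that were higher and 5 that were lower, where 23.6% and 18.6% of all genes did. Of these, Col4a1, Lamc1, Itgb3 and Itgam were higher in all 10 animals, as 7.18% of genes were, and Col18a1 and Col27a1 lower in all 10, as 7.88% were. The 10 animals did not overlap between the times for Col4a1, Itgb3 and Itgam upwards, against 2.97% of all genes. Col5a3 was likewise below its 0 h values as listed (2.37% of genes), with the values of 0 in NIC 14 and NIC 15 that their depth leaves undecided. Mean changes in date A and date B had the same sign, at 2.62 and 3.75 for Itgb3, 1.80 and 3.24 for Itgam, 2.28 and 2.52 for Col4a1 and 1.78 and 2.75 for Lamc1. Itgb3 and Itgam had means under 1 ppm at 0 h and were members through other cultures. Their separation and their exact p were thus in part fixed by the limit on the mean.

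Upstream sequence is shown for 4 members that changed, 2 of smallest p in each direction among the 7 called members with a single exon-free window, because these are the genes whose own start regions can be read beside their change. Each is the 250 bases before the RefSeq start on GRCm38.p6, read 5′ to 3′ on the gene's strand, and capitals mark a match to one of 7 short elements on either strand. The AP-1 element was searched as TGANTCA, the element of the TEAD factors as GGAATG, the box bound by SP1 and its relatives (GC box below) as GGGCGG, the box that bears the name of its letters as CCAAT, the TATA box of core promoters as TATAAA, the core of the ETS family as CCGGAAGT, and the NF-kB core as GGGA and CC with 4 free bases between them. Itgam lies on chr7:128062390-128062639 (plus strand) and Itgb1 on chr8:128685404-128685653 (plus strand), and both were called higher in limma. The call of Itgb1 was lost in edgeR (log2 change 0.21, adjusted p 0.156), and Itgam was a member through the 21 h cultures. Itga1 lies on chr13:115101965-115102214 (minus strand) and Col5a3 on chr9:20815068-20815317 (minus strand), and both fell.
Itgam: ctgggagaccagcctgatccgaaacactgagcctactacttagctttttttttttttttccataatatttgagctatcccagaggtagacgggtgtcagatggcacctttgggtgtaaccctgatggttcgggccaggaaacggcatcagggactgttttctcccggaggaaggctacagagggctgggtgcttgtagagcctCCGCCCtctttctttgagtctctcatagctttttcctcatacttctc
Itgb1: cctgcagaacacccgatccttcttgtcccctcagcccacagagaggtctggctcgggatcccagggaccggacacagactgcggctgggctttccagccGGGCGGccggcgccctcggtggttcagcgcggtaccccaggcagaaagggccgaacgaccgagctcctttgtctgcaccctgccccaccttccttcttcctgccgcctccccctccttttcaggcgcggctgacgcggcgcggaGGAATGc
Itga1: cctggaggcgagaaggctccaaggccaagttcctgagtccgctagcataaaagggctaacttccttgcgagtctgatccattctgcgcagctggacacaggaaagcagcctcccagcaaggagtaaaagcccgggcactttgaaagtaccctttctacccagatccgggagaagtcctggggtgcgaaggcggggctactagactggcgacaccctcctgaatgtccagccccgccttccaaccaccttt
Col5a3: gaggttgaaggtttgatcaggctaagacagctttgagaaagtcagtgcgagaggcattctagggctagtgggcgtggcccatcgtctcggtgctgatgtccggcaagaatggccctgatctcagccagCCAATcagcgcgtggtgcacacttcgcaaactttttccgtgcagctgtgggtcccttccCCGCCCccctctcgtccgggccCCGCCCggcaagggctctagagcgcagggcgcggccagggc
The Itgam window held 1 GC box and the Itgb1 window 1 GC box and, next to the start, 1 TEAD element. The Col5a3 window held 2 GC boxes and 1 CCAAT box, and the Itga1 window none of the 7 elements. Over the 18 members with a window, 9 held a GC box, 5 a CCAAT box, 4 an NF-kB core, 3 a TEAD element, 2 a TATA box, 1 an ETS core and 0 an AP-1 element, while of 32851 windows of that length 32.7%, 33.8%, 17.6%, 12.6%, 12.4%, 2.88% and 6.75% held them. A match is a run of letters and no measured binding.

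Few members passed before 21 h. At 1 h 0 of 29 members passed in limma, where 0.00898% of genes did. At 3 h 0 passed, where 0.135% of genes did (0.0359% downwards). An unadjusted limma p under 0.05 was reached by 0 members at 1 h and by 1 in each direction at 3 h. Of 11135 genes, 412 reached it at 1 h and 994 at 3 h. edgeR called 0 members at 1 h (0 at an unadjusted p under 0.05, against 1034 of 10997 genes). At 3 h it called 1, Col4a1, where it called 4.29% of genes. Col4a1 had 4.98, 11.1 and 30.7 ppm at 3 h against 3.14, 7.25 and 20.8 ppm at 0 h. It was higher in all 10 animals (exact sign-flip permutation p 0.00195) with a log2 change of 0.61 in limma (SE 0.26, adjusted p 0.451) and 0.79 in edgeR (adjusted p 0.0103).

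The 21 h none cultures were compared with the same 0 h libraries, so that this comparison and the one at 21 h share them. At 21 h none 13 members were higher and 7 lower, where 47.1% of genes were higher and 17.1% lower, 64.2% in all, and the median change was 0.45 over the members and 0.49 over all genes. With library medians set equal the count was 9 higher and 11 lower (56.9% of genes called, 44.7% of gene calls upwards, against 73.4% as deposited). The edgeR fit gave 10 and 10 (65.7% of genes in either direction). Lamc1 had 9.02, 31.6 and 66.2 ppm at 21 h none (log2 change against 0 h 2.59, limma adjusted p 1.83e-11), Itgb3 5.57, 11.9 and 26.3 ppm (2.83, adjusted p 8.98e-14) and Col4a1 20.0, 27.9 and 56.7 ppm (1.86, adjusted p 2.65e-08), and all 3 were higher. Col18a1, at 22.7, 68.1 and 105 ppm, was lower (−1.57, adjusted p 1.99e-08). Itgb3, Itgam and Itga3 did not overlap with 0 h upwards and Col18a1 downwards, against 5.13% and 4.18% of all genes. For Itgb3 and Itgam, with means under 1 ppm at 0 h, this was in part fixed by the limit on the mean.

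Between the 2 kinds of 21 h culture, 1 member passed, Col12a1, which was higher at 21 h none, where 26.5% of genes passed, 23.2% upwards and 3.27% downwards. It had 0, 8.77 and 30.8 ppm at 21 h none against 0, 2.29 and 16.1 ppm at 21 h (1.10, limma adjusted p 0.0180). The count was 0 without NIC 11, TA 1 or TA 2, 2 without NIC 14 or TA 3 and 5 without NIC 15. Col12a1 also lost its limma call without NIC 12 (0.96, adjusted p 0.0692) and without the 3 shallow libraries (0.83, adjusted p 0.106). With quantile normalisation it was lost too (0.69, adjusted p 0.0960). With a pseudocount of 0.1 ppm 0 members passed, and with library medians set equal 7 did, of which 6 were lower at 21 h none. Shares of all genes in these settings and without single animals are not given here. The counts therefore describe the settings and are no result about the members.

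The counts over 4 lists of genes that make, trim and anchor these proteins are to be read against the 50.7% of all genes called at 21 h. Of 21 tested genes for collagen processing and cross-linking, 7 rose and 4 fell at 21 h (median −0.03): Lox, which cross-links collagen, gave 1.72, while Mia3, the ER exit receptor for collagen, gave −1.12, Bmp1, which cuts the C-propeptide, −1.52 and the coat subunit Sec23a −0.80 (limma adjusted p between 1.63e-08 and 8.07e-06). Of 18 other matrix genes, 7 rose and 3 fell (median 0.12). Ctgf, a matricellular growth factor-binding protein, gave 4.19, Thbs1, thrombospondin, 3.33 and Nid1, which links the laminin and collagen IV sheets, 2.55, whereas Vtn, the ligand of alpha v beta 3, gave −0.79 (limma adjusted p 1.86e-15, 4.18e-12, 3.81e-09 and 4.20e-10). Of 21 matrix remodelling genes, 11 rose and 3 fell (median 0.91), among them the proteases Mmp12 (2.36), Adamts1 (2.21), Mmp3 (2.08) and Ctsb (1.02), all with a limma adjusted p of at most 7.34e-07. Of 40 genes of the integrin adhesion complex, 22 rose and 4 fell (median 0.64), led by Lgals3, a galectin (4.47), the actin cross-linker Flna (3.01), the kinase Src (2.92) and Lims1, the partner of integrin-linked kinase (2.61), with limma adjusted p of at most 1.01e-09. None of the 4 lists had a gene called at 3 h or for NIC against TA over all libraries. For NIC against TA at 21 h, limma called 1 collagen processing gene, 2 remodelling genes and 1 other matrix gene higher in NIC. In the adhesion complex 1 was higher and 3 were lower. Of all genes 5.41% passed there, and 0 without the 3 shallow libraries.

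Patterns over the 50 time course libraries were most alike between Lamc1 and Peak1 (Pearson r 0.962), Eaf1 (0.956), Cep170 (0.956), Anxa2 (0.954) and Tpd52 (0.950), between Itgb1 and Bdp1 (0.935), Rhoq (0.922), Fem1b (0.920), Eif2s2 (0.918) and Smarca5 (0.916), and between Col4a1 and Cstb (0.901), Ppp1r15a (0.896), Ralb (0.887), Cd68 (0.885) and Mthfd2 (0.884). These libraries share animals, culture times and depth, and the values describe likeness only.

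The father's exposure was compared over all libraries and within single cultures. Over all 60 libraries 0 of 29 members differed between NIC and TA animals in limma, where 0.216% of all genes did (0.0808% downwards). edgeR called 0 members and 0 of 10997 genes. Without NIC 13 limma called 2, 1 in each direction, a count for which no share of all genes is given here. At an unadjusted p under 0.05 limma gave 2 members higher and 4 lower in NIC, and edgeR 4 and 4. That threshold was reached in either direction by 1655 of 11135 genes in limma and by 2176 of 10997 in edgeR.

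Members near the threshold lay on both sides. Each animal's deviation from the mean of its cultures, on the log2 scale, was taken. That of Col3a1 ran from −1.32 to 1.33 in NIC animals (median 0.37) and from −0.55 to 0.16 in TA animals (median −0.29), with 3 NIC and 9 TA animals below 0 (limma 0.60, SE 0.19, unadjusted p 0.00277, adjusted p 0.148). Lama3 ran from −1.13 to 0.70 (median 0.36) in NIC and from −0.45 to 0.47 (median −0.27) in TA, with 2 and 8 animals below 0 (0.43, SE 0.14, unadjusted p 0.00323, limma adjusted p 0.156). Col14a1 (0.44, limma adjusted p 0.336) and Col13a1 (0.31, adjusted p 0.456) were on the same side. On the other side stood Col12a1 (−0.60, limma adjusted p 0.238), Lamc1 (−0.39, adjusted p 0.321) and Itgav (−0.39, adjusted p 0.327). None of them passed over all genes. Beside them, the 8 stellate cell and fibroblast markers tested had a median NIC to TA difference of 0.63 on the log2 scale, with 0 called. The medians were 0.24 for Kupffer, 0.18 for endothelial and −0.46 for biliary markers, also with 0 called. Their part was not tested.

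How many members reached an exact permutation p under 0.05 (fathers exchanged within dates, 2-sided, 0.000139 the smallest p possible) depended on single animals, most of all on NIC 20. With all animals there was 1 of 29, where 9.38% of all genes reached it, and without NIC 20 there were 6, of which 5 were higher in NIC, where 9.08% of all genes reached it. Without NIC 12 or TA 8 there were 4, with 3 higher, without NIC 13 or TA 5 there were 5, with 2 higher, without NIC 16 there were 3, and without NIC 19, TA 2, TA 4 or TA 7 there were 2. The share of all genes was taken only with all animals and without NIC 20, so the other counts are no result about the members. NIC 20, cultured for 2 h without dexamethasone, had 91.9 ppm of Itgb1 and 8.51 ppm of Itgav, where the other 5 animals of that culture had 144 to 215 ppm of Itgb1 and 31.4 to 71.2 ppm of Itgav. Its hepatocyte markers summed to 153952 ppm, against 96867 to 117821 ppm in the others, and its stellate (52.8 ppm), endothelial (135 ppm), Kupffer (201 ppm) and biliary (228 ppm) markers were below all of theirs (at least 79.3, 231, 291 and 1416 ppm). Its part in the differences was not tested.

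At 21 h 2 members were called higher in NIC, where 1.41% of genes were. Col3a1 had 1.25, 0.599, 1.58, 3.51 and 19.7 ppm in the NIC animals 11 to 15 and 0, 0.655, 0, 0.157 and 0 ppm in the TA animals 1 to 5, on 1, 3, 5, 1 and 4 reads in NIC and 0, 3, 0, 1 and 0 reads in TA (log2 difference 1.76, SE 0.40, limma adjusted p 0.00721). Itgam had 5.94, 2.13, 5.61, 20.8 and 17.5 ppm in NIC and 2.22, 3.62, 2.19, 5.41 and 2.81 ppm in TA, on 4, 9, 15, 5 and 3 reads in NIC and 6, 14, 6, 29 and 4 in TA (1.13, SE 0.33, limma adjusted p 0.0332). The NIC and TA values overlapped in both, and the highest were those of the shallow libraries NIC 14 and NIC 15, where Kupffer and stellate markers were also highest. Left out singly, NIC 14, TA 1, TA 3, TA 4 or TA 5 brought the count to 1, NIC 12 to 4, and NIC 15 to 1 that was lower in NIC. No shares of all genes are given for these fits, so their counts are no result about the members. Without the 3 shallow libraries 0 members and 0 genes passed in limma (4 members at an unadjusted p under 0.05, 2 in each direction, against 815 of 11135 genes). The differences were then 1.02 for Col3a1 (limma adjusted p 0.60) and 0.08 for Itgam (adjusted p 0.97). In these 21 h libraries 2 of 13 Kupffer and 3 of 8 stellate markers were likewise called higher in NIC, and their part was not tested.

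**Figure D4:**
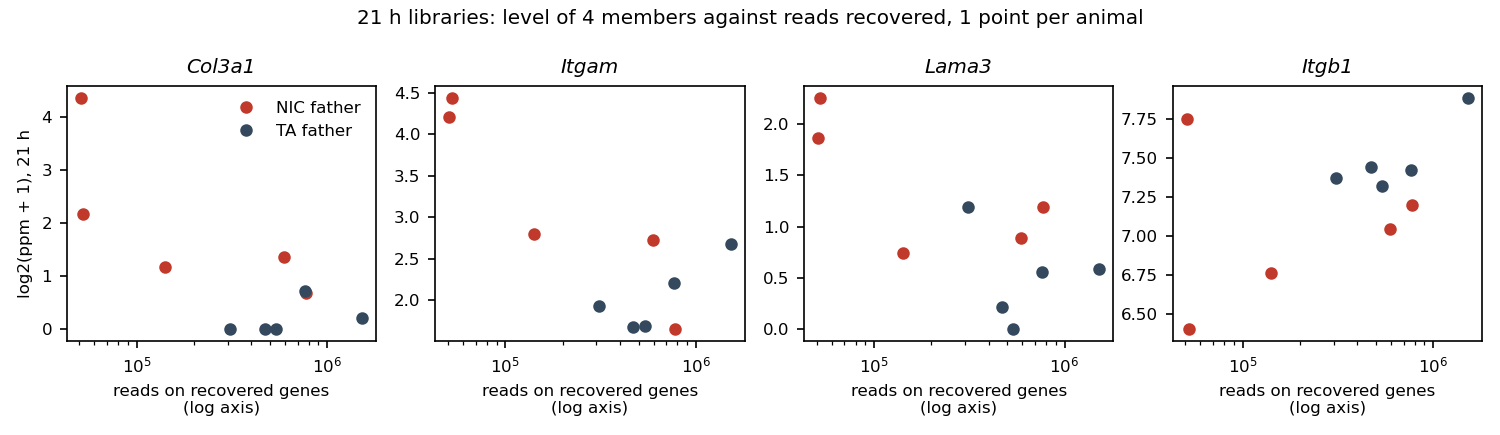
Log2(ppm + 1) of Col3a1, Itgam, Lama3 and Itgb1 in the 21 h libraries against the reads of each library on a log axis, with NIC animals in red and TA animals in dark blue. The highest Col3a1 and Itgam values, 19.7 and 20.8 ppm, are those of the 2 shallowest NIC libraries, with 50832 and 52378 reads.

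The change in culture was also compared between the fathers. The interaction, 21 h against 0 h in NIC minus that in TA, passed for 0 of 29 members and for 0.198% of genes (0.18% downwards), and 5 members had an unadjusted p under 0.05, as 1613 of 11135 genes had, each with a larger value in NIC (Itgb2 1.59, Col3a1 1.53, Itgb3bp 1.52, Itga9 1.18, Itgam 1.07). The highest 21 h value of each was that of a shallow library, 47.6 ppm of Itgb2, 19.7 ppm of Col3a1 and 19.2 ppm of Itga9 in NIC 15, and 21.3 ppm of Itgb3bp and 20.8 ppm of Itgam in NIC 14. In NIC and TA animals the log2 change at 21 h was 3.06 and 3.07 for Itgb3, 2.67 and 2.09 for Col4a1, 1.98 and 2.36 for Lamc1, −1.16 and −1.22 for Col18a1 and −1.50 and −1.32 for Col5a3, with 2 NIC libraries at 0 reads. Within NIC 10 members were higher and 4 lower (37.7% of genes called), and within TA 8 and 6 (34.2%). Without the shallow libraries NIC had 4 higher and 1 lower, on 2 animals at 21 h. The share of all genes in that fit is not given here, so this count is no result about the members.

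In single cultures the ranges of NIC and TA values rarely parted. At 3 h Itga6 had 0.528, 1.18, 1.55, 1.09 and 0.218 ppm in NIC and 3.33, 2.60, 1.66, 2.14 and 1.98 ppm in TA, lower in every NIC animal, as 0.629% of all genes were. At 21 h none Itga9 had 4.29, 1.85, 2.496, 2.08 and 2.58 ppm in NIC and 1.55, 1.19, 1.11, 0.852 and 1.82 ppm in TA, higher in every NIC animal (0.368% of genes). In the same culture Lama4 had 1.26, 0.836, 1.47, 0 and 1.52 ppm in NIC and 1.82, 2.48, 1.95, 3.00 and 2.56 ppm in TA (0.961% of genes lay lower in every NIC animal), but NIC 14 had 0 reads, where 3 would stand for 2.44 ppm, above 2 of the TA values. At 0, 1 and 21 h no member parted, and none of these 3 differences passed in limma. In that test 0 members passed at 21 h none beside 5.14% of genes (1.29% upwards and 3.84% downwards). Without NIC 13 it called 1 member at 21 h none, with no share of all genes given here.

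At 2 h with dexamethasone, where values are not scaled by length and only 2 animals stand against 2, 7 members lay higher in NIC and 5 lower (25.4% and 11.1% of genes). Itga1, for example, had 23.5 and 23.2 ppm in NIC and 14.3 and 14.4 ppm in TA, and Itgb1 had 339 and 333 ppm in NIC and 269 and 311 ppm in TA. In the 2 h cultures with dexamethasone limma called 0 members (1 at an unadjusted p under 0.05, against 178 of 11135 genes). edgeR on those 4 libraries called 0 of 27 (5 at an unadjusted p under 0.05, 3 of them higher in NIC, against 816 of 10772 genes). Without dexamethasone limma called 0 (2 at an unadjusted p under 0.05, both lower in NIC, against 323 of 11135 genes).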

How the data were processed

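RNA of 60 hepatocyte cultures was depleted of rRNA and sequenced as strand-specific libraries. For alignment the authors used Bowtie2 (build mm10), and for differences DESeq2. Counting tool, annotation and versions are not given in the sources used here. The deposited table calls all values ppm. The 4 libraries of date C hold CPM as deposited by the authors, and the deposited values of the other 56 behave as TPM, being scaled by transcript length.

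Culture times and fathers were compared with limma 3.58.1 (R 4.3.3, intensity trend) on log2(ppm + 1) for 11135 genes with a mean above 1 ppm, with terms for each culture of each father, date B against date A, and the animal as a random block (statmod 1.5.0, consensus correlation 0.1114, or 0.09574 in the model of the father over all libraries). A count model could not be fitted to these values, so edgeR 4.0.16 (quasi-likelihood test) was run, as an alternative added after the values were seen, on whole reads recovered for 10997 genes. P-values were adjusted over all genes tested by the Benjamini-Hochberg method. Single members were tested over animals by exact sign flips or by exchanging fathers within dates (14400 splits), in Python 3.11.15 with numpy 2.4.6 and pandas 2.3.3. Pairing rests on the animal, which was inferred from the running number and date in the library titles. The study lists the 21 h none library called NIC 14 here as animal 11. Its title number and date place it with animal 14, which was used. Results at 21 h none that name NIC 14, or leave out NIC 14 or NIC 11, rest on this placement. Deviations of the same animal at 0 h and 21 h correlated by −0.0628 to 0.213 (4 of 10 above 0.1), and over all 100 pairs of its cultures by −0.11 to 0.661. The study states that the animals of each father group came from separate litters, so p-values measure the spread between litters and animals together.

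Beside the setting above, 37 others were run: another pseudocount, low-value limit, scaling or block, leaving out each animal, and leaving out the 3 shallow libraries. The fits were also run on simulated data, and the outcome is not given here. The members, gene lists and tests were chosen with earlier results of these data known. Given with values per sample are the 2 members of highest mean in each role class, the 8 of smallest p in each direction at 21 h and the 4 in each direction for the father, and of each pathway list up to 4 genes of smallest p; those given beyond this were chosen after their values were seen. Gene positions are GENCODE M21 on GRCm38. Limits for 0 reads are 3 reads and cover counting error only. The values of 1 member are not reported here.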

Additional observations from a re-analysis of the deposited data

Results flagged for a closer look

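Of 168 groups of animal values over the members, 12 held an animal that stood apart from the rest by Dixon's test at the 95% level, where chance alone would give 8.4. Among changes per animal against 0 h, on the log2 scale, Itga6 stood apart at 21 h in NIC 14 (−0.957) and Itgb3bp at 21 h in the same animal (4.05). Both are values of a shallow library, and that of Itga6 rests on 0 reads at 21 h, where 3 reads would stand for 9.69 ppm, against 0.941 ppm at 0 h, so a lower level was not measured there. At 3 h the animals apart were TA 1 for Itga7 (1.34) and Itgb3bp (−2.15), TA 2 for Lama4 (1.13) and TA 5 for Itga2b (1.55), and at 1 h TA 4 for Col14a1 (−1.59).

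Among animal means as deviations from the mean of their cultures, NIC 20 stood apart for Itgav (−2.03), TA 4 for Col4a1 (0.59), TA 5 for Col4a2 (0.771), TA 6 for Itga5 (−1.34) and TA 7 for Itgam (1.25). TA 6 and TA 7 are the only TA animals of their date, and NIC 20 is the animal with the low sums of stellate, endothelial, Kupffer and biliary markers.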

How the results depend on the processing

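Of the 19 members called at 21 h, 14 kept their call under every alternative, and Col12a1, Itgb1, Itgb2, Lama3 and Lama4 did not; of the 20 called at 21 h none, 15 did. No called member reversed its direction. With a mean above 5 ppm, which leaves 14 members, 11 passed at 21 h, 11 at 21 h none, 0 between the 2 kinds of 21 h culture and 0 for NIC against TA at 21 h, and within NIC 9 and within TA 8. In the setting described above, 50.7% of all genes passed at 21 h and 64.2% at 21 h none. Counts in this section without a share of genes for the same setting describe the settings and are no result about the members. edgeR called 1 member at 3 h, also without the shallow libraries (1). Between 21 h none and 21 h, 0 passed with a pseudocount of 0.1 ppm, 3 with 5 ppm, 7 with equal medians and 8 with quantile normalisation. With no replicate block 2 members, Col3a1 and Lama3, passed for NIC against TA over all libraries (2.55% of genes). With the replicate block as a fixed term 13 members were higher and 6 lower at 21 h (49.1% of genes in either direction). The block changed no other count by over 1.5 times. Without the shallow libraries 0 passed for NIC against TA at 21 h and 5 for 21 h within NIC. Leaving out 1 animal at a time gave 17 to 20 members at 21 h, 17 to 20 at 21 h none, 0 to 5 between these, 0 to 2 for NIC against TA over all libraries, 1 to 4 at 21 h and 0 to 1 at 21 h none, 12 to 19 within NIC, 10 to 14 within TA, and by exact test 13 to 18 for 21 h and 1 to 6 for the father. The causes were not tested. Depth limits the low members in NIC 14 and NIC 15 at 21 h, where 3 reads of Col5a3, for example, stand for 9.64 and 13.5 ppm.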

Other observations

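Of the 57 collagen, integrin and laminin symbols below the limit for testing, Col1a2, a chain of collagen I, had a median of 0.287 ppm at 21 h, with a highest value of 15.97 ppm, and a median of 0 ppm at 0 h, while its medians at 2 h were 2.00 ppm with and 0.650 ppm without dexamethasone. Itgb6, an epithelial partner of alpha v, had a median of 0.341 ppm at 21 h, with a highest value of 15.96 ppm, and a median of 1.52 ppm at 2 h with dexamethasone. The values at 2 h with dexamethasone are not scaled by transcript length.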
